A study of Rattus norvegicus with 30 samples.

Results

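The promoters of 3 NMDA receptor subunit genes, Grin1, Grin2a and Grin2b, were followed in MBD-seq counts of the rat brain at 3 months after traumatic brain injury (TBI). They were taken from the promoter tables by their Ensembl gene identifiers, which are ENSRNOG00000011726 for Grin1, ENSRNOG00000033942 for Grin2a and ENSRNOG00000008766 for Grin2b. These identifiers accounted for 5 of 22307 promoter windows and 3 of 20196 identifiers, and all were present in the tables of all 3 tissues. Grin1 had 3 windows with the same counts in every library, so the 5 windows gave 3 distinct profiles, and Grin1 is described once. In the comparisons of TBI with sham all 5 windows passed the filter on low counts. The tables name a window by its identifier alone, so its position on the Rnor_5.0 build used for mapping is not given here, and the gene names could not be checked against other measurements in the tables.

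The 30 libraries came from 10 adult male Sprague-Dawley rats. Rats 1 to 5 were sham-operated, with anaesthesia and the whole operation except the impact, and rats 6 to 10 received a lateral fluid-percussion injury after the same craniectomy. From each rat the perilesional cortex and, on the injured side, the hippocampus and the thalamus were used, and the sample labels describe the dissected hippocampus as dentate gyrus with part of CA3. The tissues were whole pieces, so that a difference in cell composition and a difference in methylation within a cell type cannot be told apart. Total promoter counts ranged from 1430875 to 4227800 per library.

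The NMDA receptor is a glutamate-gated channel that passes calcium when glutamate and a co-agonist are bound and the membrane is depolarized. Grin1 encodes the GluN1 subunit, which binds the co-agonist and is required in every NMDA receptor. Grin2a and Grin2b encode GluN2A and GluN2B, which bind glutamate and set how long the channel stays open. GluN2B prevails early in forebrain development and GluN2A increases with age, and overactivation of these receptors is a known route of neuronal injury after brain trauma. MBD-seq sequences the sheared DNA that a methyl-CpG-binding protein domain retains. The count of a window rises with the number of methylated CpG sites in it and with the efficiency of capture, so a higher count at one gene than at another is not by itself a higher percentage of methylation.

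The sequence upstream of the Grin1 start is shown because CpG sites are what the assay can capture. Of the 3 genes, only Grin1 matched the RefSeq promoter table of the GRCr8 build. Its CpG sites therefore cannot be set against those of Grin2a and Grin2b. The stretch covers the 250 bases before the Grin1 start at chr3:28528755-28529004 on the minus strand, written 5′ to 3′ with every CpG in capitals. It belongs to another build than the counts and makes up only the start-proximal part of a counted window.
Grin1 upstream sequence: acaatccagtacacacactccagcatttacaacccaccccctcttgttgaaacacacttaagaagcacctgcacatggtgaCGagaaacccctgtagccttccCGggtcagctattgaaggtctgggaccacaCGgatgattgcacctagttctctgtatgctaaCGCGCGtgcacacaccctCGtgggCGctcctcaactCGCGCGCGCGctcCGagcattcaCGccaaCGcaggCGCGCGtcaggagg
This stretch held 19 CpG sites, of which 2 lay in the distal 125 bases and 17 in the 125 bases nearest the start. The median over 33469 RefSeq promoters of the same length was 5 CpG sites, and 18.4% of them had at least as many as Grin1. The GC content was 57.6%, and the observed CpG number was 0.952 times that expected from the base composition. The letters GGGCGG, searched on both strands, were not found in it, against 30.5% of promoters of this length that held them.

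Levels are given as CPM, promoter counts divided by the total promoter count of the library in units of 1000000, scaled by the TMM factors of all 30 libraries. The median window had a mean level of 27.1 CPM in the cortex, 24.9 CPM in the hippocampus and 27.6 CPM in the thalamus. The ranks state what percentage of the other windows in the same library had a lower count, with tied windows split evenly between lower and higher. For Grin1 the tied windows include its own duplicates.

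Before the levels are described, 7 libraries need mention because they were named as standing apart from the others of their tissue. Over 18138 identifiers, the cortex libraries of rats 4 and 6 correlated more closely with the mean hippocampus profile (r = 0.965 and 0.957) than with that of the other cortex libraries (r = 0.890 and 0.865). The hippocampus library of rat 5 was closer to the cortex (r = 0.943) than to the hippocampus (r = 0.830), and the thalamus library of rat 6 was nearly as close to the hippocampus (r = 0.903) as to the thalamus (r = 0.912). In the cortex of rats 1 and 10, the 1% of windows with the most counts held 34.7% and 52.8% of all counts, and rat 9 had the lowest r with its own tissue, 0.933, of the hippocampus libraries other than that of rat 5. These 7 were taken as named in an earlier analysis of the same data, and the share of counts in the top 1% of windows did not by itself separate them, since the hippocampus libraries of rats 1 and 6, which were kept, had 40.1% and 38.1%. The level of Grin2b, the order, the comparisons, the ratios and the correlations are given with and without the 7 libraries. Cortex rats 4 and 6, hippocampus rat 5 and thalamus rat 6 stood apart by likeness to another tissue. Leaving them out can by itself widen a difference between tissues, so calls found only then are no separate support for one.

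Grin2b had by far the highest counts of the 3 promoters. In the cortex the sham libraries of rats 1 to 5 had 51.5, 82.2, 66.7, 108 and 64.2 CPM, and the TBI libraries of rats 6 to 10 had 110, 69.7, 64.6, 64.6 and 36.0 CPM. In the hippocampus the sham libraries had 112, 91.6, 111, 103 and 51.7 CPM and the TBI libraries 141, 111, 128, 104 and 88.8 CPM. In the thalamus the values were 78.3, 69.3, 75.7, 85.9 and 109 CPM in sham and 130, 71.9, 91.4, 82.7 and 78.6 CPM in TBI. The highest cortex libraries were those of rats 4 and 6 and the lowest was that of rat 10, while the lowest hippocampus library was that of rat 5, so that these extremes of Grin2b fell on libraries that stood apart. Without those libraries the level was 68.7 ± 6.96 CPM in the cortex (SD, n = 6), 111 ± 17.2 CPM in the hippocampus (n = 8) and 82.6 ± 12.1 CPM in the thalamus (n = 9), against 71.8 ± 23.1, 104 ± 23.9 and 87.3 ± 18.8 CPM over all 10 libraries of each.

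Grin2b lay near the top of the promoter windows in every tissue. In the cortex a median of 93.1% of the other windows had a lower count (range 79.5 to 95.6% over 10 libraries). The median was 91.8% in the hippocampus (81.9 to 96.3%) and 95.8% in the thalamus (92.8 to 97.4%). The lowest ranks were those of cortex rat 10 and hippocampus rat 5.

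Grin2a, the gene of the subunit that increases with maturation, had a level near that of Grin1 in the cortex and thalamus and above it in the hippocampus. Its cortex libraries had 15.1, 22.0, 18.5, 25.4 and 9.68 CPM in sham and 32.7, 14.0, 16.4, 12.3 and 37.4 CPM in TBI. The hippocampus had 41.2, 20.6, 23.9, 30.5 and 12.9 CPM in sham and 31.8, 18.3, 27.7, 34.9 and 29.8 CPM in TBI. The thalamus had 11.1, 14.8, 18.1, 15.5 and 16.1 CPM in sham and 29.3, 14.4, 15.1, 11.2 and 16.6 CPM in TBI. The TBI cortex of rats 6 and 10 and the TBI thalamus of rat 6 stood above the rest of their groups, and the hippocampus of rat 5 was the lowest of its tissue. Its median rank was 54.8% in the hippocampus (20.7 to 66.8%), against 28.9% in the cortex (10.9 to 82.5%) and 25.6% in the thalamus (17.0 to 54.0%).

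Grin1, the gene of the obligatory subunit, had a lower count than most windows in 29 of 30 libraries, the exception being the cortex of rat 10. In the cortex it had 24.5, 10.6, 18.5, 11.4 and 14.5 CPM in sham and 3.96, 14.9, 8.42, 14.3 and 33.7 CPM in TBI. In the hippocampus the values were 6.87, 11.9, 5.70, 7.62 and 16.8 CPM in sham and 9.32, 6.37, 6.51, 14.5 and 10.1 CPM in TBI. In the thalamus they were 20.2, 17.5, 20.2, 17.1 and 14.7 CPM in sham and 7.14, 18.7, 17.2, 19.2 and 18.9 CPM in TBI. The TBI cortex held both the lowest value, that of rat 6, and the highest, that of rat 10, of all 30 libraries. The hippocampus of rat 5 was the highest of that tissue and the thalamus of rat 6 the lowest of that one. The median rank was 30.1% in the thalamus (19.3 to 36.6%), 22.6% in the cortex (5.16 to 73.1%) and 21.0% in the hippocampus (13.4 to 29.9%). These levels rested on few reads, with a range per library of 8 to 100 (cortex), 8 to 39 (hippocampus) and 21 to 84 (thalamus), against 107 to 393 for Grin2b over the 3 tissues.

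**Figure D1:**
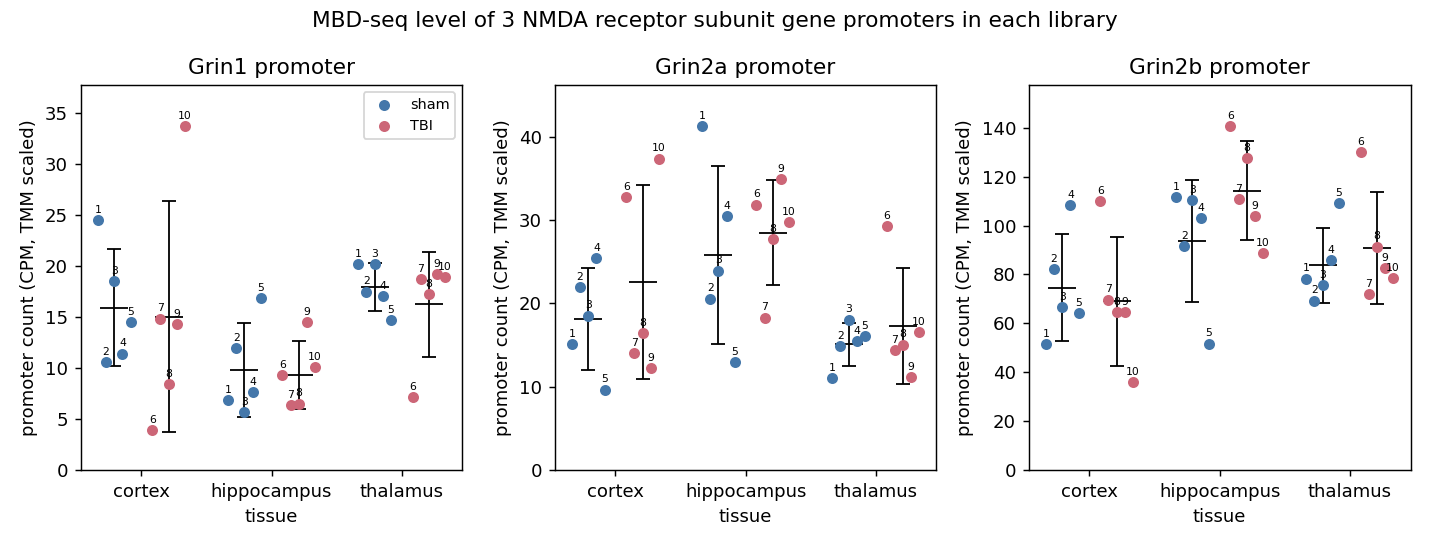
Level of the Grin1, Grin2a and Grin2b promoters in CPM (y axis, a separate scale for each gene) by tissue (x axis), with 1 point per library labelled by rat number, sham in blue and TBI in red, and the mean ± SD of the 5 libraries in black. In every tissue the sham and TBI points overlap for each gene, and the points of rats 5, 6 and 10 lie at the extremes of several groups, as the Grin1 values of 3.96 CPM and 33.7 CPM in the TBI cortex show.

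**Figure D2:**
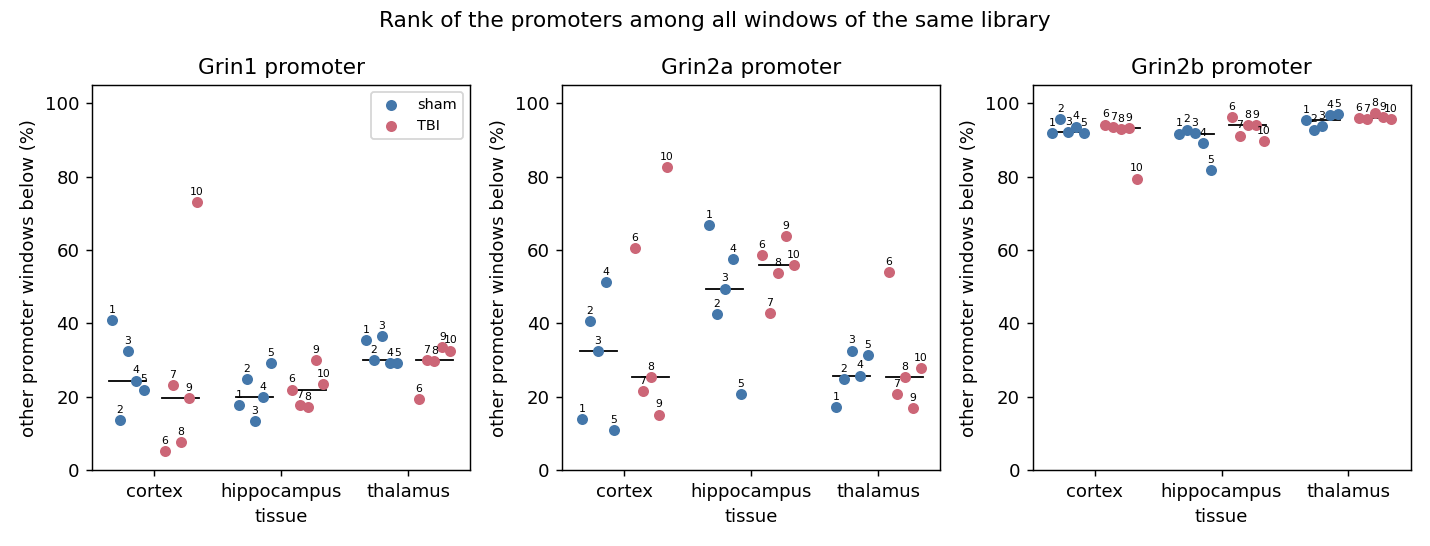
Percentage of the other promoter windows of the same library with a lower count, ties split evenly (y axis), for each gene and tissue (x axis). Each library is 1 point labelled by rat number, and the median of the 5 libraries is a black line. Grin2b lies between 79.5% and 97.4% in all 30 libraries, whereas Grin1 lies at or below 40.9% in all but the cortex of rat 10 with 73.1%.

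The order of the 3 promoters within a library was tested by an exact two-sided sign-flip permutation test of the difference in log2 CPM over the 10 rats of a tissue, with adjustment over the 9 tests. Grin2b was higher than Grin1 in 10 of 10 rats in each tissue, with cortex differences of 2.30 ± 1.23, hippocampus differences of 3.42 ± 0.825 and thalamus differences of 2.34 ± 0.684 (mean ± SD of the log2 difference, exact p = 0.00195, the smallest the test can give, adjusted p = 0.00352). Grin2b was higher than Grin2a in 9 of 10 rats in the cortex (1.84 ± 0.731, exact p = 0.00391, adjusted p = 0.00502), the exception being rat 10. It was higher in 10 of 10 rats in the hippocampus (1.94 ± 0.360) and in the thalamus (2.42 ± 0.289, both exact p = 0.00195, adjusted p = 0.00352). Grin2a was higher than Grin1 in the hippocampus in 9 of 10 rats (1.47 ± 0.804, exact p = 0.00391, adjusted p = 0.00502), the exception being rat 5. The difference between Grin2a and Grin1 missed the threshold in the cortex, where Grin2a was higher in 5 of 10 rats (0.46 ± 1.07, exact p = 0.211, adjusted p = 0.237). It also missed the threshold in the thalamus, where Grin2a was higher in 2 of 10 (−0.08 ± 0.773, exact p = 0.809, adjusted p = 0.809). When the libraries that stood apart were left out, Grin2b was higher than Grin1 and Grin2a in every remaining library (6 cortex, 8 hippocampus and 9 thalamus, adjusted exact p from 0.0117 to 0.0352). Grin2a was then higher than Grin1 in 8 of 8 hippocampus libraries (1.73 ± 0.512, exact p = 0.00781, adjusted p = 0.0117) and in 2 of 6 cortex libraries (0.18 ± 0.643), where the threshold was again missed. In the thalamus without rat 6 it was lower than Grin1 in 8 of 9 libraries, and this difference passed the threshold (−0.30 ± 0.308, exact p = 0.00781, adjusted p = 0.0117). With the 5 sham rats alone the smallest p the test allows is 0.0625, so no order could pass the threshold there. Because windows differ in their CpG sites, the order is one of captured DNA, not of percentage of methylation.

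To ask whether TBI was followed by a lasting change at these promoters, TBI was compared with sham within each tissue by the quasi-likelihood test of edgeR over all windows, with Benjamini-Hochberg adjustment. None of the 3 promoters passed the threshold of 0.05 in any tissue, and neither did any other window: 0 of 22110 were called in the cortex, 0 of 20017 in the hippocampus and 0 of 21894 in the thalamus (0.0% in each). At an unadjusted p under 0.05 there were 171, 570 and 198 windows, none of them among the 3 genes. A calibrated test with no difference anywhere would give a share of about 0.05, and each number was below it. The 0 calls therefore do not show that TBI left the promoters unchanged. Without the libraries that stood apart the numbers were 1411 of 22098 in the cortex and 603 of 19255 in the hippocampus. The thalamus without rat 6 had 1267 of 21978, and 0 windows were again called in each. Over all libraries, DESeq2 and limma voom also called 0 windows in each tissue, and an exact test with 1 common dispersion called 7, 156 and 0. The ranges of the sham and TBI libraries overlapped in all 9 combinations of gene and tissue.

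In the cortex Grin1 was at 15.9 ± 5.73 CPM in sham and 15.04 ± 11.3 CPM in TBI (SD, n = 5 rats each), a log2 fold change of −0.09 (SE 0.406, 95% interval −0.95 to 0.77, edgeR adjusted p = 1.00). Grin2a was at 18.1 ± 6.09 and 22.6 ± 11.6 CPM, a log2 fold change of 0.30 (SE 0.324, −0.39 to 0.98). Grin2b was at 74.6 ± 21.8 and 69.0 ± 26.5 CPM, a log2 fold change of −0.12 (SE 0.311, −0.78 to 0.54). The intervals are wide in this tissue, where 4 of the 10 libraries stood apart. Without the cortex of rats 1, 4, 6 and 10 the log2 fold changes were −0.21 (SE 0.274) for Grin1, −0.24 (SE 0.260) for Grin2a and −0.10 (SE 0.140) for Grin2b, so that the direction of Grin2a turned. That fit rested on sham rats 2, 3 and 5 and TBI rats 7, 8 and 9 only, so its smaller SEs come from fewer libraries.

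In the hippocampus Grin2b had the largest difference of the 3 genes, from 93.7 ± 24.8 CPM in sham to 114 ± 20.2 CPM in TBI. Its log2 fold change was 0.30 (SE 0.204, 95% interval −0.13 to 0.73, unadjusted p = 0.156, edgeR adjusted p = 1.00), a ratio between 0.916 and 1.66. Of the 4 sham rats other than rat 5, none had under 91.6 CPM, and without rats 5 and 9 the log2 fold change was 0.16 (SE 0.156). Grin2a was at 25.8 ± 10.7 CPM in sham and 28.5 ± 6.30 CPM in TBI (0.21 on the log2 scale, SE 0.257, −0.34 to 0.75), and at −0.07 (SE 0.223) without those libraries. Grin1 was at 9.79 ± 4.58 and 9.36 ± 3.32 CPM (−0.06, SE 0.369, −0.84 to 0.71), and at 0.02 (SE 0.358) without them.

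In the thalamus Grin1 was at 17.9 ± 2.33 CPM in sham and 16.2 ± 5.13 CPM in TBI, a log2 fold change of −0.13 (SE 0.223, 95% interval −0.60 to 0.34). Grin2a was at 15.1 ± 2.57 and 17.3 ± 6.96 CPM (0.17, SE 0.235, −0.32 to 0.67) and Grin2b at 83.7 ± 15.4 and 90.9 ± 22.9 CPM (0.11, SE 0.176, −0.26 to 0.49). All 3 differences changed sign without rat 6, to 0.05 (SE 0.154), −0.09 (SE 0.182) and −0.04 (SE 0.120). In the fit over all libraries the 95% intervals of the ratio of TBI to sham ran from 0.659 to 1.27 for Grin1, from 0.799 to 1.59 for Grin2a and from 0.836 to 1.40 for Grin2b.

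**Figure D3:**
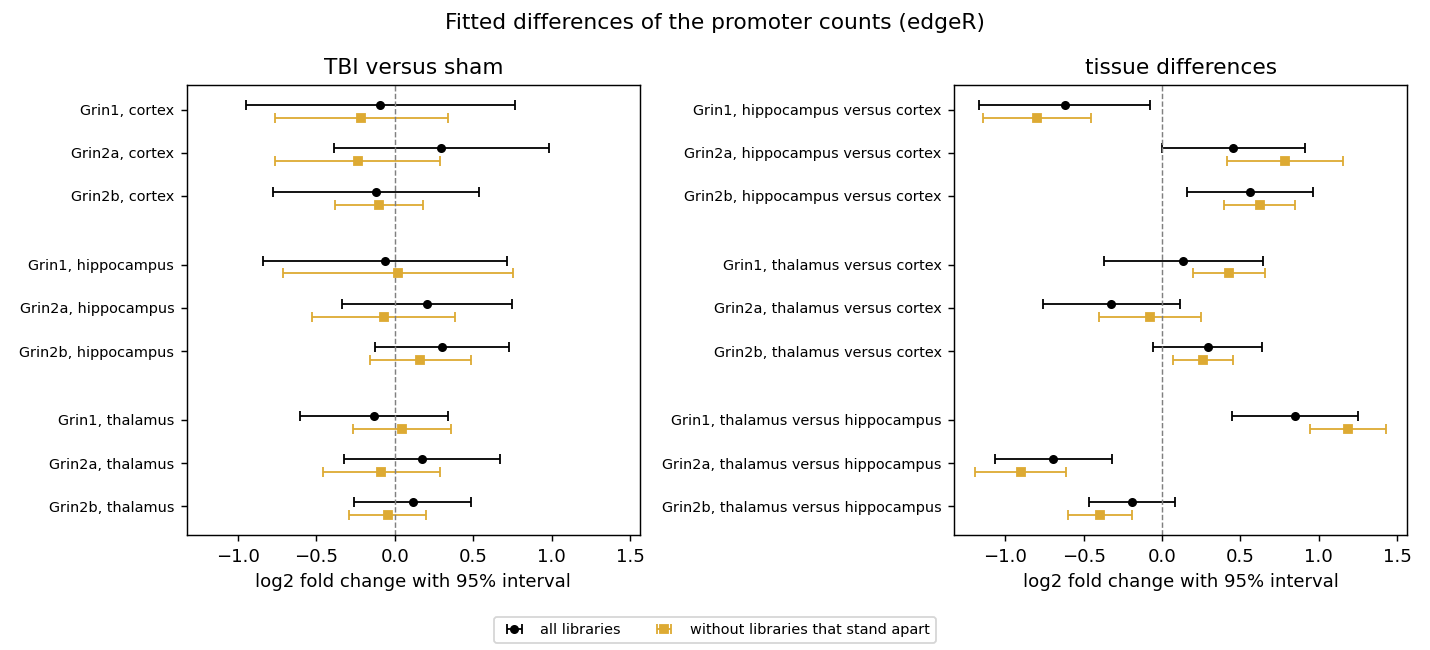
Log2 fold change with its 95% interval (x axis) for each gene and comparison (y axis), TBI versus sham on the left and tissue versus tissue on the right, over all libraries (black circles) and without those that stood apart (yellow squares, for the thalamus on the left without rat 6). The yellow squares rest on fewer libraries than the black circles. All 9 intervals of TBI versus sham include 0 in both fits, while the Grin1 interval lies above 0 for the thalamus against the hippocampus (log2 fold change 0.85) and the Grin2a interval below 0 (−0.69).

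The tissues were compared over all 20 libraries of each pair with treatment as a covariate, after the windows of an identifier had been summed. The 3 Grin1 windows hold the same counts, so the same reads entered these fits and the interaction fits 3 times. This raises the apparent read depth of Grin1 in them. The 3 comparisons share libraries, and since the methods of the study refer to another instrument for the thalamus while the labels name 1 instrument for all, a difference between tissues and a difference between runs cannot be told apart. Between hippocampus and cortex, 57.2% of 20004 identifiers were called (29.6% higher and 27.5% lower in the hippocampus), between thalamus and cortex 19.6% of 20087 (8.43% higher and 11.2% lower), and between thalamus and hippocampus 60.1% of 19877 (31.8% higher and 28.3% lower). A call at a given promoter was therefore common in both comparisons with the hippocampus. The direction of calls depended on the scaling: 5924 identifiers were higher and 5510 lower in the hippocampus than in the cortex with TMM, against 1823 and 8345 with library totals, which moved the median log2 fold change to −0.36. For thalamus against cortex the numbers were 1694 and 2249 with TMM and 501 and 1199 with library totals. For thalamus against hippocampus they were 6318 and 5623 with TMM and 8572 and 3224 with library totals, which moved the median to 0.32.

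For these promoters the clearest tissue difference was that between thalamus and hippocampus, in which Grin1 and Grin2a went opposite ways. Calls in both directions were common in this comparison, with 31.8% of identifiers higher and 28.3% lower in the thalamus. The log2 fold change of Grin1 lay above 88.7% of those of all identifiers, and that of Grin2a above 11.6%. Both lay between the 5th and 95th percentiles of all identifiers, −1.01 and 1.10, so neither was extreme among them. Grin1 was 1.80-fold higher in the thalamus (17.1 ± 3.86 against 9.58 ± 3.78 CPM, SD, n = 10 each), a log2 fold change of 0.85 (SE 0.195, 95% interval 0.45 to 1.25, edgeR adjusted p = 0.000717). It was higher in 8 of 10 rats, and 8 of the 10 thalamus libraries lay above all hippocampus libraries. Grin2a was lower in the thalamus (16.2 ± 5.08 against 27.2 ± 8.39 CPM), with a log2 fold change of −0.69 (SE 0.181, −1.06 to −0.32, adjusted p = 0.00213) and a lower level in 9 of 10 rats, all but rat 5. Grin2b did not pass the threshold, with 87.3 ± 18.8 CPM in the thalamus and 104 ± 23.9 CPM in the hippocampus and a log2 fold change of −0.19 (SE 0.132, −0.46 to 0.08, adjusted p = 0.211).

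Both calls held in 10 of 10 fits that each left out 1 rat. With windows of the same counts kept once, Grin1 was still called, at a log2 fold change of 0.80 (SE 0.206, edgeR adjusted p = 0.00181). Without the libraries that stood apart, when 72.1% of 19888 identifiers were called, the log2 fold changes were 1.19 for Grin1 (SE 0.120), −0.90 for Grin2a (SE 0.144) and −0.40 for Grin2b (SE 0.101, adjusted p = 0.000720), so that Grin2b was then called lower in the thalamus as well. With library totals Grin2b was at 0.07, which is −0.25 relative to the median of all identifiers. Grin1 and Grin2a kept their directions under that scaling, at 1.10 and −0.44.

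Between hippocampus and cortex, Grin1 was lower in the hippocampus (9.58 ± 3.78 against 15.5 ± 8.48 CPM), with a log2 fold change of −0.62 (SE 0.265, 95% interval −1.17 to −0.08, edgeR adjusted p = 0.0479). This call was marginal. It was lost when the windows with the same counts were kept once (adjusted p = 0.0572) and without each of rats 1, 3, 4, 7, 8 and 10 in turn, and Grin1 was lower in the hippocampus in 6 of 10 rats. Grin2b was higher in the hippocampus in 8 of 10 rats (104 ± 23.9 against 71.8 ± 23.1 CPM), with a log2 fold change of 0.56 (SE 0.195, 0.16 to 0.96, adjusted p = 0.0180). That call was lost without rat 1 or rat 8, with a highest adjusted p of 0.0572. With library totals the Grin2b value was 0.21 (adjusted p = 0.359), which is 0.56 relative to the median of all identifiers. Grin2a was higher in the hippocampus in 7 of 10 rats and missed the threshold (27.2 ± 8.39 against 20.4 ± 9.04 CPM, log2 fold change 0.46, SE 0.222, −0.00055 to 0.91, adjusted p = 0.0799). It passed with the rat as a block (0.47, adjusted p = 0.0263), a fit that called 57.7% of 20134 identifiers. In the fit without those that stood apart 69.8% of 19912 identifiers were called, and so were all 3 genes, at −0.80 (SE 0.169) for Grin1, 0.78 (SE 0.182) for Grin2a and 0.62 (SE 0.111) for Grin2b. That fit left out libraries of each tissue that resembled the other, which by itself can widen the differences.

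Between thalamus and cortex none of the 3 promoters was called. The log2 fold change was 0.14 for Grin1 (SE 0.245, 95% interval −0.37 to 0.64, edgeR adjusted p = 0.737), −0.32 for Grin2a (SE 0.213, −0.76 to 0.12, adjusted p = 0.300) and 0.29 for Grin2b (SE 0.168, −0.06 to 0.64, adjusted p = 0.232). With the libraries that stood apart left out, 23.7% of 20064 identifiers were called, and Grin1 was higher in the thalamus (0.43, SE 0.113, adjusted p = 0.00535), as was Grin2b (0.26, SE 0.0945, adjusted p = 0.0395), while Grin2a was at −0.08 (SE 0.161).

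Whether the TBI difference varied with the tissue was tested by the interaction of tissue and TBI. No identifier passed the threshold in edgeR (0 of 20079 for hippocampus and cortex, 0 of 20118 for thalamus and cortex and 0 of 20003 for thalamus and hippocampus, 0.0% each), with 316, 165 and 352 at an unadjusted p under 0.05, and DESeq2 also called 0. These numbers too were below a share of 0.05, so the 0 calls do not show that interactions were absent. The largest interaction of the 3 genes was that of Grin2b between hippocampus and cortex, at 0.43 on the log2 scale (SE 0.388, 95% interval −0.37 to 1.23, edgeR adjusted p = 1.00). The others ranged from −0.19 to 0.23. The interval of the Grin2b value spans differences in both directions, so no direction is given for it.

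The balance of Grin2b and Grin1 within a library does not depend on scaling, since both counts come from the same library. The ratio of the Grin2b to the Grin1 count had a median of 14.3 in the hippocampus (range 3.08 to 19.6), 4.60 in the cortex (1.07 to 27.8) and 4.24 in the thalamus (3.75 to 18.2). It was higher in the hippocampus than in the thalamus in 8 of 10 rats and higher than in the cortex in 7 of 10. The exceptions against the thalamus were rats 5 and 6, and against the cortex rats 2, 5 and 6. The cortex ratio of rat 6 was 27.8, its thalamus ratio 18.2 and the hippocampus ratio of rat 5 was 3.08, and the profiles of the first and the last of these libraries were closer to another tissue than their label, while that of the second was nearly as close to the hippocampus as to the thalamus. The cortex of rat 10 had the lowest ratio, 1.07. Without the 7 libraries that stood apart, the median ratio was 15.7 over 8 hippocampus libraries (7.67 to 19.6), 4.60 over 6 cortex libraries (3.60 to 7.77) and 4.16 over 9 thalamus libraries (3.75 to 7.42).

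**Figure D4:**
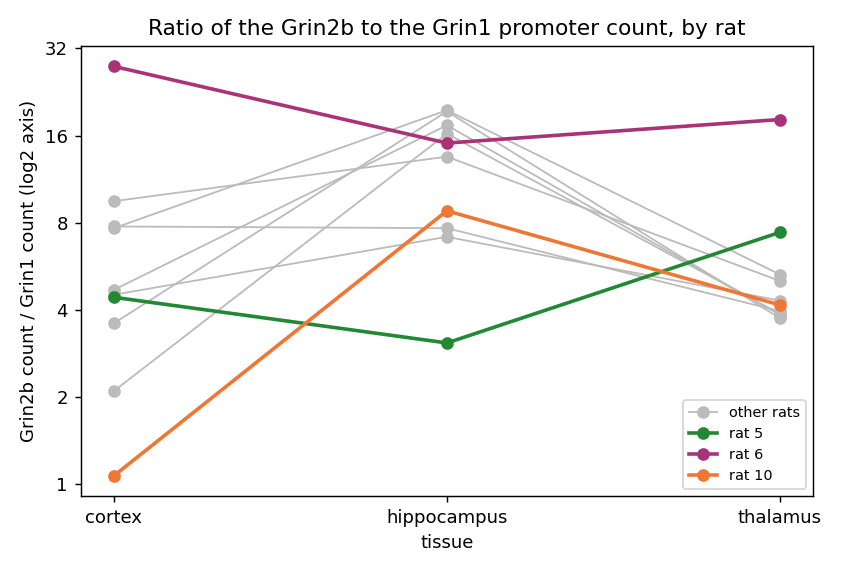
Ratio of the Grin2b to the Grin1 promoter count (y axis, log2 scale) in the 3 tissues (x axis), with 1 line per rat, rats 5, 6 and 10 in colour and the others in grey. The grey lines peak in the hippocampus or are level from cortex to hippocampus, whereas rat 5 falls to 3.08 there and rat 6 starts at 27.8 in the cortex and ends at 18.2 in the thalamus.

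Within a tissue, libraries with a higher Grin2b level tended to have a lower Grin1 level. Over the 10 libraries of a tissue, Pearson's r of the log2 CPM was −0.83 in the cortex (permutation p = 0.00443, adjusted over 9 relations p = 0.0199), −0.68 in the hippocampus (permutation p = 0.0198, adjusted p = 0.0446) and −0.86 in the thalamus (permutation p = 0.00237, adjusted p = 0.0199). Spearman's rho was −0.68, −0.61 and −0.67 (permutation p = 0.0339, 0.0667 and 0.0399, adjusted p = 0.180, 0.200 and 0.180). After the 2 libraries with the Grin1 levels farthest from the median were left out, r was −0.56 in the cortex without rats 6 and 10, −0.43 in the hippocampus without rats 5 and 9 and −0.31 in the thalamus without rats 5 and 6. When those that stood apart were left out, r was −0.24 over 6 cortex libraries, −0.43 over 8 hippocampus libraries and −0.73 over 9 thalamus libraries. The negative r was thus smaller in size in each tissue when such libraries were left out, and in the thalamus it depended more on rat 5 together with rat 6 than on rat 6 alone. With 5 rats in each, no value is given within sham or TBI. The same was seen for Grin1 and Grin2a in the thalamus, with r = −0.83 (permutation p = 0.0188, adjusted p = 0.0446), whose rho was −0.38 (permutation p = 0.280, adjusted p = 0.420) and whose r was −0.24 without rats 5 and 6 and −0.32 without rat 6. The other 5 relations had adjusted permutation p of Pearson's r from 0.0667 to 0.797.

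Of 18137 other identifiers, those most like each gene over the 30 libraries were found by Pearson's r of log2 CPM, given as a description because libraries share tissue, rat and depth. Grin2b was followed most closely by ENSRNOG00000010999 (r = 0.946, and 0.965, 0.892 and 0.894 within cortex, hippocampus and thalamus), and 2118 identifiers had r above 0.8 with it. Grin1 was followed most closely by ENSRNOG00000050496 (r = 0.897, and 0.852, 0.945 and 0.928 within the tissues), with 211 identifiers above 0.8. For Grin2a, ENSRNOG00000002141 was closest (r = 0.847, and 0.71, 0.884 and 0.794 within the tissues), with 23 above 0.8. Identifiers with r above 0.8 were thus many for Grin2b and few for Grin2a. Reads per library ran from 107 to 393 for Grin2b, 22 to 111 for Grin2a and 8 to 100 for Grin1. The part of counting noise in these numbers was not tested.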

How the data were processed

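Whole-number MBD-seq counts per promoter window and gene body were used as deposited. The authors mapped the reads to Rnor_5.0 with STAR without splicing and counted them with Repitools in R 3.1.0 (tools named in the submitters' processing notes and the study's methods), and no normalization had been applied to the counts. Exon counts were not used, because exon rows were not mapped to genes, and 0 columns of the other tables were left over. Replicate libraries differed by more than sampling noise (chi-square per degree of freedom 2.05 to 112 over 60 pairs).

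The members and gene lists were chosen with earlier results of these data known. Always named were Grin1, Grin2a and Grin2b and, for each, the identifiers with the most similar pattern. Other NMDA receptor subunits, further glutamate signalling genes and cell type markers were to be named as well, but the reference gene table paired 0 of them with an identifier, so no value was obtained and no cell type could be checked.

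In R 4.3.3 with edgeR 4.0.16, windows passed filterByExpr at a count of at least 10 and a total of at least 15, were scaled by TMM and tested with the quasi-likelihood F test, adjusted by Benjamini-Hochberg over all windows (threshold 0.05). The SE was obtained as the log2 fold change divided by the square root of F. Log2 CPM used a pseudocount of 0.5. The alternatives were DESeq2 1.42.0, limma 3.58.1 voom with sample weights, an exact test with 1 common dispersion, library totals, no filter, the rat as a block, leaving out each rat and leaving out the libraries that stood apart. Keeping windows with the same counts once, and testing the order of the promoters without the libraries that stood apart, were added after seeing the data.

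Equal rat numbers were taken as the same animal because the rat identifier is a sample label. The median correlation of same-rat deviations from the group means was 0.0342 between hippocampus and cortex, 0.126 between thalamus and cortex and −0.0414 between thalamus and hippocampus. Python 3.11.15, pandas 2.3.3 and matplotlib 3.10.9 were used for the tables and figures.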

Additional observations from a re-analysis of the deposited data

Results flagged for a closer look

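In the TBI thalamus the Grin1 promoter of rat 6 had 7.14 CPM, far below the other 4 libraries of the group, with a gap of 0.839 of the range of the 5 libraries (limit 0.71). This was 1 of 18 groups of libraries tested in this way, and 0.9 would be flagged by chance. The library was that whose profile lay between thalamus (r = 0.912) and hippocampus (r = 0.903), and its part in the value was not tested.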

How the results depend on the processing

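Counts of called windows for TBI versus sham stayed at 0 in each tissue under each alternative and without each rat in turn, except for the exact test on library totals, which shares 1 dispersion among all windows and called 7 windows in the cortex and 156 in the hippocampus. For thalamus against cortex, library totals called 1700 identifiers in place of 3943. Without each rat in turn the calls ranged from 9063 to 12253 for hippocampus against cortex, 2865 to 4902 for thalamus against cortex and 10561 to 13158 for thalamus against hippocampus. The causes were not tested.

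None of the TBI differences passed the threshold under any alternative, and 8 of the 9, all but Grin2b in the hippocampus, changed sign under at least 1 of them. With voom and sample weights the log2 fold changes were −0.12 (Grin2a, cortex), 0.26 (Grin1, hippocampus) and −0.052 (Grin2a, thalamus). Without the libraries that stood apart they were −0.24 (Grin2a, cortex), 0.019 (Grin1, hippocampus) and −0.071 (Grin2a, hippocampus). Without each rat in turn the ranges were −0.60 to 0.14 (Grin1), 0.05 to 0.45 (Grin2a) and −0.37 to 0.053 (Grin2b) in the cortex, −0.31 to 0.28, 0.03 to 0.42 and 0.15 to 0.38 in the hippocampus, and −0.20 to 0.047, −0.086 to 0.30 and −0.045 to 0.22 in the thalamus.

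For tissue differences, the Grin1 value for hippocampus against cortex was −0.64 with windows of the same counts kept once (no longer called), and the Grin2b value was 0.21 with library totals (no longer called). Without the libraries that stood apart, newly called values were 0.78 (Grin2a, hippocampus against cortex), 0.43 (Grin1) and 0.26 (Grin2b, thalamus against cortex) and −0.40 (Grin2b, thalamus against hippocampus). The last was 0.066 with library totals, with which the median of all identifiers was 0.32. Some of the libraries left out resembled another tissue, so these new calls are no separate support for a tissue difference. Without each rat in turn the ranges for Grin1, Grin2a and Grin2b were −0.76 to −0.49, 0.31 to 0.51 and 0.43 to 0.63 for hippocampus against cortex, 0.06 to 0.37, −0.42 to −0.17 and 0.22 to 0.37 for thalamus against cortex, and 0.71 to 0.96, −0.84 to −0.57 and −0.38 to −0.17 for thalamus against hippocampus. Grin2a was called for the first of these without rat 5, and Grin2b for the last without rat 5.

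With the rat as a replicate block, Grin2a was called higher in the hippocampus than in the cortex (0.47), the Grin1 interaction for thalamus against cortex was 0.064, and no other call on the 3 genes changed. The block called 11618, 5583 and 11627 identifiers for the 3 tissue comparisons in the order above.

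Interactions stayed far from the threshold. With library totals they were 0.077 (Grin2a, hippocampus and cortex), 0.088 (Grin1, thalamus and cortex) and 0.042 (Grin1, thalamus and hippocampus). Without the libraries that stood apart they were 0.18 (Grin2a, hippocampus and cortex), 0.26 (Grin1) and 0.15 (Grin2a, thalamus and cortex) and 0.024 (Grin1, thalamus and hippocampus). Without each rat in turn the ranges for Grin1, Grin2a and Grin2b were −0.24 to 0.50, −0.34 to 0.19 and 0.29 to 0.62 for hippocampus and cortex, −0.25 to 0.40, −0.28 to 0.13 and 0.07 to 0.40 for thalamus and cortex, and −0.45 to 0.13, −0.33 to 0.19 and −0.28 to 0.10 for thalamus and hippocampus.

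With the 5 sham rats alone the order of the promoters was the same, with log2 differences of Grin2b over Grin1 of 2.22 (cortex), 3.25 (hippocampus) and 2.18 (thalamus), of Grin2b over Grin2a of 2.03, 1.89 and 2.43, and of Grin2a over Grin1 of 1.36 in the hippocampus, where too few rats remain to reach the threshold. When the libraries that stood apart were left out, Grin2a over Grin1 in the thalamus was −0.30, newly past the threshold, and the 8 other order tests kept their direction and their side of it. Among windows that passed the filter, the mean rank of Grin1 in the hippocampus was 12.8% in sham and 13.6% in TBI, against 21.0% and 22.1% among all windows.

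Few reads limit Grin1 most, since 8 reads were the lowest count in both cortex and hippocampus. The study held 5 rats per group, and the 95% intervals give the changes that these data leave possible.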

Other observations

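Gene body counts were near empty for the 3 genes, as they were for gene bodies in general. Summed over the 10 libraries of a tissue, Grin1 had 2 counts in the cortex and 0 in the hippocampus and thalamus, Grin2a had 3, 1 and 16, and Grin2b had 0 in each. Of 26404 gene bodies, 25.02% had no count in any cortex library, 46.3% in any hippocampus library and 39.4% in any thalamus library, so the gene bodies gave no level to set beside the promoters.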
